A study of Mus musculus with 9 samples.

Results

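Lcn2 and 4 genes proposed to encode receptors for its protein, Slc22a17, Lrp2, Mc4r and Lrp6, were followed across 9 expression arrays of mouse macrophages. The members were taken by gene symbol from the deposited table, with the brightest probe set of each gene and no filter on dim signals. Each of the 5 genes had 1 probe set, so all 5 were measured, among 19505 genes in all. Macrophages were grown from the marrow of wildtype C57BL/6 mice over 7 days in M-CSF (macrophage colony-stimulating factor), stated as 10 ng/ml in one label and as 20 ng/ml in another. Every group, the controls included, was then stimulated for 24 h with 20 ng/ml of recombinant mouse IL-4 (interleukin 4), which drives macrophages to an anti-inflammatory state. In the first group the cells received vehicle. In the second, LCN2 was added on day 7, at a dose that the labels do not give. In the third, recombinant mouse LCN2 at 150 ng/ml was present from day 0. Each of the 3 groups was measured on 3 arrays, whose titles carry the numbers 1, 2 and 3. The labels do not say whether these came from separate mice or cultures, so the p-values cover no more than the scatter among these arrays, which could be technical.

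Lipocalin 2, a small protein released by cells, captures the siderophores with which bacteria collect iron. It is stored in the granules of neutrophils, and macrophages make it after stimulation through Toll-like receptors or by interleukin 1. Slc22a17 encodes a membrane protein of the organic ion transporter family described as a cell surface receptor for lipocalin 2. Lrp2 encodes megalin, a large endocytic receptor of the kidney proximal tubule that takes up filtered proteins. Mc4r encodes the melanocortin 4 receptor, which curbs appetite in the hypothalamus. Lrp6 encodes a co-receptor for Wnt ligands, together with Frizzled proteins. The arrays measure the cells' own messenger RNA, and the added protein is not part of the signal.

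The 9 arrays had like distributions, with array medians between 5.60 and 5.69 on the log2 scale. The cells carried macrophage RNA, as all 7 measured genes of a macrophage marker list lay between 7.86 and 12.50 on average, and all 7 measured lymphoid markers lay between 3.42 and 5.07. Of 17 neutrophil markers, 12 lay at or above the median of all probe sets (5.66), as did 51.5% of all genes, with Ngp the brightest at 10.01 and Fcnb the dimmest at 3.58. Of 7 monocyte markers 5 did, with means from 5.26 to 7.89. The arrays numbered 1 stood apart from the others in all 3 groups. Against numbers 2 and 3 combined, 2708 genes passed an adjusted p of 0.05 (limma, Benjamini-Hochberg over all genes), of which 995 were higher and 1713 lower on number 1. This count was 1121 without the vehicle array numbered 1, 1213 without the day 0 array numbered 1 and 1735 without the vehicle array numbered 3. What the title numbers stand for is not given in the sources used here.

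The promoter of Lcn2 is shown beside those of Ngp and Ltf, the neutrophil granule genes with the smallest p of their marker list by title number (below). Each is the stretch of 250 bases before the transcription start in the mouse RefSeq table of the GRCm38.p6 build. Capitals mark the letters GCAAT, a short site of C/EBP factors, and GAGGAA, the core bound by PU.1, on either strand.
Lcn2 (chr2:32387740-32387989, minus strand): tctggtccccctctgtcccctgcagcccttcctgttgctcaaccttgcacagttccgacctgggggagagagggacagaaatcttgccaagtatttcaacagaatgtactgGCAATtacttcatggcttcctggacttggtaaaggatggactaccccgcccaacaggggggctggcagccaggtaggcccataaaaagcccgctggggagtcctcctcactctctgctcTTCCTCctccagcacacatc
Ngp (chr9:110419558-110419807, plus strand): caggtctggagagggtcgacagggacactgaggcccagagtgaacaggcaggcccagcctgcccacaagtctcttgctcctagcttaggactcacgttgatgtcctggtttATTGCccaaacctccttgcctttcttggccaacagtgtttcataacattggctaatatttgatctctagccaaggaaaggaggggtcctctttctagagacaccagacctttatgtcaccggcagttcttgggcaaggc
Ltf (chr9:111019042-111019291, plus strand): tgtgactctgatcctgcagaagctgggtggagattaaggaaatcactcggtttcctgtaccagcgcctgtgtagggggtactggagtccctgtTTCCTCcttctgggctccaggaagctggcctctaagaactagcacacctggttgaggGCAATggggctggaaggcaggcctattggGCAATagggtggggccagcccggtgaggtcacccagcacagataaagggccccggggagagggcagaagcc
The short site GCAAT lay 139 bases before the start in Lcn2 and, on the other strand, 139 bases before it in Ngp. Ltf held it at 100 and 71 bases before the start. The core GAGGAA lay 20 bases before the start in Lcn2 and 157 bases before it in Ltf, and was not found in the Ngp window. A longer C/EBP pattern, TTNNGNAA, was found once in Lcn2, at 216 bases before the start. Ngp held 3 copies of it, at 138, 102 and 11 bases, and Ltf 2 copies, at 217 and 75 bases. In Ngp the copy at 138 bases overlaps the short site, and in Ltf the copy at 75 bases does. None of the windows held TATAAA or the NF-kB consensus. Matches to such short patterns were common. Among 32851 promoter windows of the same length, 23.1% held GCAAT, 36.8% TTNNGNAA, 23.3% GAGGAA, 12.4% TATAAA and 3.9% the NF-kB consensus. The matches are a description of these letters and not of binding. Promoters of Slc22a17 and Lrp2 were in the table too, and Lrp6 was not.

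Of the 5 genes, Lcn2 was the brightest and by far the most variable from array to array. Its log2 level was 8.24, 10.56 and 10.29 on the vehicle arrays numbered 1, 2 and 3. It was 9.24, 10.39 and 10.65 on the arrays with LCN2 from day 7, and 8.85, 10.82 and 10.62 on those with LCN2 from day 0. In each group the array numbered 1 was the low one, and the other two lay close together. The range over all arrays was 2.58 log2 units, or 6.00-fold on the linear scale. Lcn2 was brighter than 93.8% of all genes, and 99.7% of genes had a smaller standard deviation (SD) over the 9 arrays. Brightness depends on the probes as well as on the RNA, so it gives no order of abundance between genes.

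Slc22a17, the transporter-family receptor, was dim. Its levels were 5.54, 4.92 and 5.06 with vehicle, 5.29, 4.96 and 4.79 with LCN2 from day 7, and 5.46, 5.36 and 5.37 with LCN2 from day 0. The 3 day 0 arrays all lay above the 3 day 7 arrays, while the vehicle arrays spanned both. Lrp2, the megalin gene, was dimmer, at 4.95, 4.37 and 4.40 with vehicle, 4.31, 4.41 and 4.22 with LCN2 from day 7, and 4.30, 4.43 and 4.76 with LCN2 from day 0. The groups overlapped, and the vehicle array numbered 1 was the highest of all. Mc4r was close to the floor of the arrays, at 3.28, 3.15 and 3.48 with vehicle, 3.55, 3.29 and 3.36 with LCN2 from day 7, and 3.37, 3.49 and 3.25 with LCN2 from day 0. Only 6.71% of all genes were dimmer than Mc4r, against 32.0% for Lrp2 and 43.2% for Slc22a17. The SD over the 9 arrays was larger than that of 78.0% of genes for Slc22a17, 69.0% for Lrp2 and 17.7% for Mc4r. All 3 had means below the median of all probe sets. A list of 13 genes of other tissues, such as the insulin gene Ins2 and the lung surfactant gene Sftpc, had means from 3.67 to 6.11. The means of Slc22a17 and Lrp2 (5.19 and 4.46) fell inside that range and that of Mc4r (3.36) below it.

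Lrp6, the Wnt co-receptor, was the bright receptor gene of the set and the steadiest gene. Its levels were 8.37, 8.24 and 8.43 with vehicle, 8.48, 8.39 and 8.36 with LCN2 from day 7, and 8.42, 8.55 and 8.45 with LCN2 from day 0. All 9 values lay within 0.31 log2 units of each other, and only 4.07% of genes had a smaller SD. It was brighter than 80.2% of all genes.

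**Figure D1:**
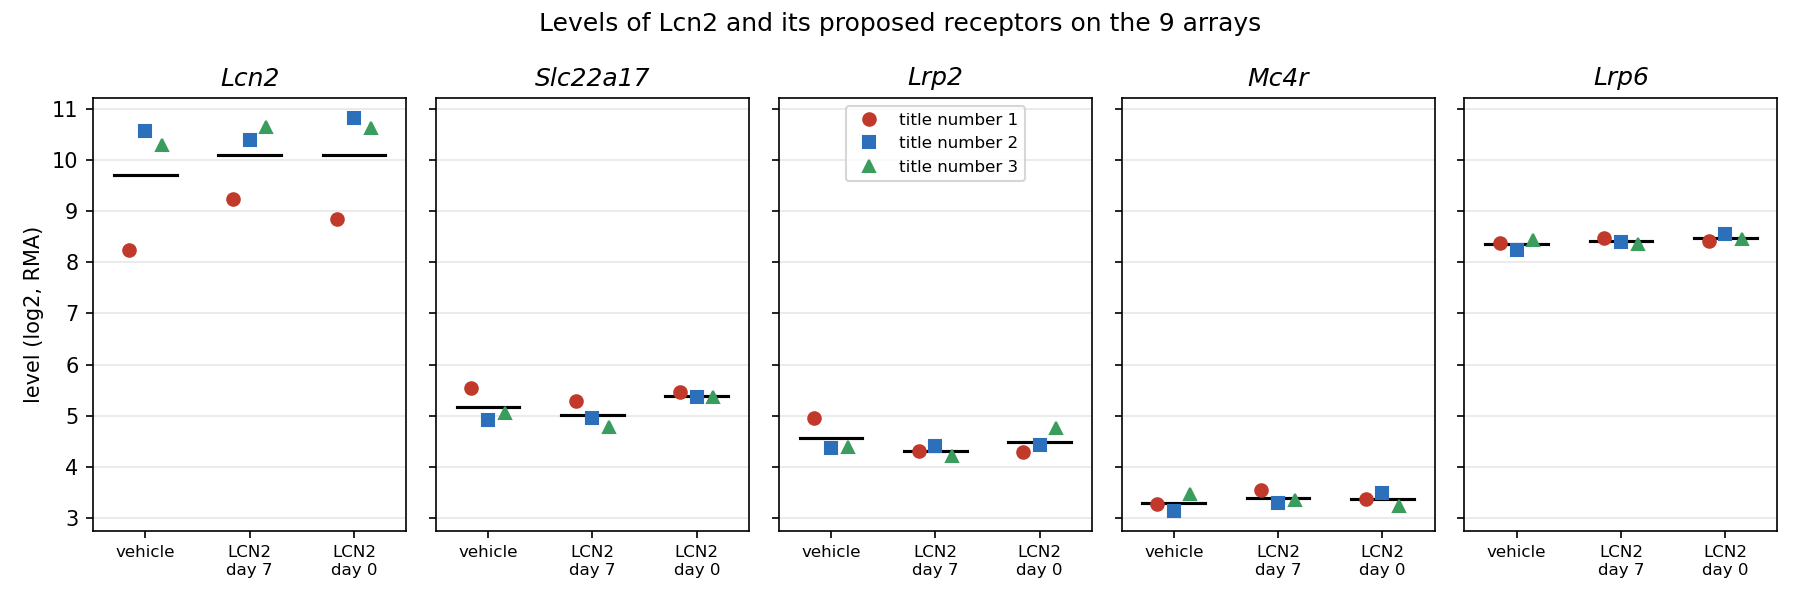
Log2 level (vertical axis) of Lcn2, Slc22a17, Lrp2, Mc4r and Lrp6 on each of the 9 arrays, by group (horizontal axis) and title number (colour and shape). Black bars are group means (n = 3). Lcn2 is lowest on the array numbered 1 in every group, from 8.24 to 9.24, and lies between 10.29 and 10.82 on the others, while the range of the 4 receptor genes over all arrays is 0.74 for Slc22a17, 0.73 for Lrp2, 0.41 for Mc4r and 0.31 for Lrp6.

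The first question of the design was whether LCN2 given with IL-4 on day 7 altered these genes. The mean level of Lcn2 was 10.09 ± 0.75 (SD, n = 3) with LCN2 from day 7 and 9.70 ± 1.27 (SD, n = 3) with vehicle. The difference was 0.40 ± 0.67 (standard error, SE), with a 95% confidence interval from -1.09 to 1.88 and an adjusted p of 1 (limma). This spread includes the gap between the arrays numbered 1 and the others. With the title number as a block the SE was 0.19 and the interval -0.033 to 0.83 (limma unadjusted p 0.0665, adjusted p 0.999). Between arrays of the same number the difference was 1.01, -0.17 and 0.36, so that 2 of 3 pairs were higher with LCN2. For Slc22a17 the means were 5.01 ± 0.25 and 5.17 ± 0.32 (SD, n = 3 each), and the difference of -0.16 had an interval from -0.56 to 0.24. Lrp2 was at 4.31 ± 0.091 against 4.57 ± 0.33 (SD, n = 3 each). Its difference of -0.26 (interval -0.66 to 0.14) was -0.073 without the vehicle array numbered 1, and the pairs gave -0.64, 0.036 and -0.18. The differences of Mc4r and Lrp6 were 0.098 and 0.066, with intervals from -0.20 to 0.39 and from -0.18 to 0.31. None of the 5 genes passed the adjusted threshold, nor did any of the 19505 genes (0%). At an unadjusted p of 0.05, 418 genes passed. The 2 groups overlapped for all 5 genes, against 5.94% of all genes without overlap.

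LCN2 from day 0 was set against the same 3 vehicle arrays, so the 2 comparisons share their controls. The mean of Lcn2 was 10.10 ± 1.08 (SD, n = 3) with LCN2, a difference of 0.40 ± 0.67 (SE, interval -1.08 to 1.89, limma adjusted p 1). With the title number as a block the interval was -0.028 to 0.83 (limma unadjusted p 0.0637, adjusted p 0.999). All 3 same-number pairs were higher with LCN2, by 0.61, 0.27 and 0.33, but the share of all genes with 3 pairs in one direction was not counted. The groups overlapped, and the array numbered 1 was the low one in both. Slc22a17 was at 5.40 ± 0.055 (SD, n = 3), a difference from vehicle of 0.22 (interval -0.17 to 0.62). The value was 0.40 without the vehicle array numbered 1 and 0.099 without the one numbered 2. Its pairs gave -0.075, 0.44 and 0.31. Lrp2 was at 4.50 ± 0.24 (SD, n = 3) and differed by -0.074 (interval -0.47 to 0.32). Mc4r differed by 0.068 (interval -0.23 to 0.36). Lrp6 was at 8.48 ± 0.069 against 8.35 ± 0.093 (SD, n = 3 each), a difference of 0.13 (interval -0.12 to 0.37), with all 3 pairs higher, by 0.051, 0.31 and 0.027. Again no member passed the adjusted threshold and 0% of all genes did, while 391 genes had an unadjusted p under 0.05. The groups overlapped for all 5 genes, against 6.81% of all genes without overlap.

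The 2 schedules of LCN2 were then compared with each other. Slc22a17 was the one member whose arrays did not overlap between groups, in a comparison in which 6.76% of all genes did not overlap. Its lowest day 0 value was 5.36 and its highest day 7 value 5.29. The difference was 0.38 ± 0.18 (SE, interval -0.015 to 0.78), and the pairs gave 0.17, 0.40 and 0.58. The unadjusted limma p was 0.0576 and the adjusted p 1. The exact permutation test (two-sided) gave p = 0.1, the smallest that 3 against 3 arrays allow. On every array its level was under the median brightness. Lcn2 differed by 0.005 ± 0.67 (SE, interval -1.48 to 1.49), Lrp2 by 0.19 (interval -0.21 to 0.59), Mc4r by -0.030 (interval -0.33 to 0.27) and Lrp6 by 0.063 (interval -0.18 to 0.31). None passed the adjusted threshold and 0% of all genes did, with 561 at an unadjusted p under 0.05. The 3 group means of Slc22a17 ran from LCN2 day 7 through vehicle to LCN2 day 0, with neighbours closer than the spread of the vehicle arrays. For all 5 genes, each interval between groups included 0 in these fits, which had no block. With the title number as a block, the interval of Slc22a17 between day 0 and day 7 was 0.093 to 0.67. Its limma unadjusted p was then 0.0152 and its adjusted p 0.933.

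**Figure D2:**
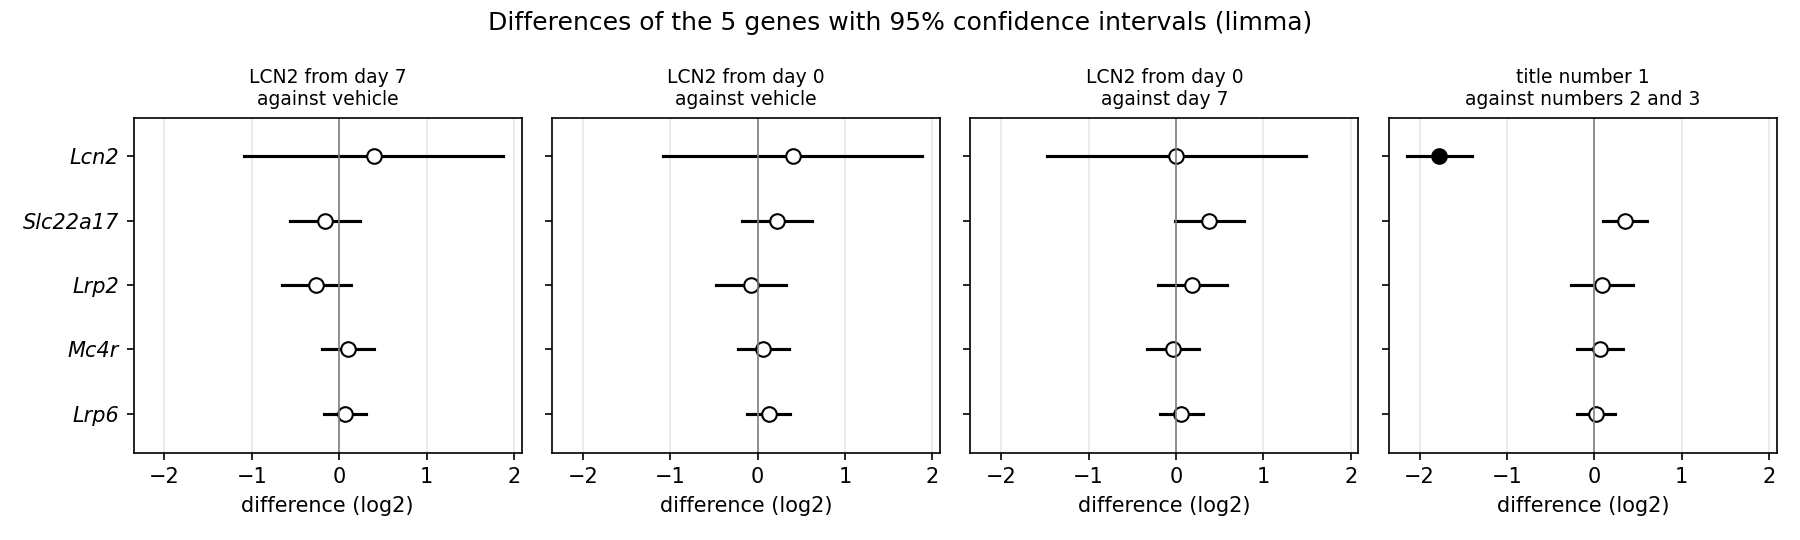
Difference in log2 level (horizontal axis) of each gene (vertical axis) in 4 comparisons, with 95% confidence intervals from limma, over 3 arrays a group, or 3 arrays against 6 for the title numbers. The title-number fit had the treatment group as a block, and the fits between treatment groups had no block. The widths of their intervals are therefore not to be compared. Filled points passed an adjusted p of 0.05. That was so of Lcn2 between the title numbers (-1.78) and of no gene between the treatment groups.

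By title number, Lcn2 was the one member that passed the adjusted threshold. Its mean was 8.78 ± 0.51 (SD, n = 3) on the arrays numbered 1, 10.59 ± 0.22 on those numbered 2 and 10.52 ± 0.20 on those numbered 3. The arrays numbered 1 were lower than the others by 1.78 ± 0.165 log2 units (SE), or 3.43-fold, with an interval of the difference from -2.15 to -1.40 (limma, adjusted p 0.000291). The difference was -2.19 within vehicle, -1.27 within LCN2 from day 7 and -1.87 within LCN2 from day 0, so it was present in 3 of 3 groups. Number 1 and the rest did not overlap, but the share of all genes without overlap is not given for this contrast. Of all genes, 8.78% were called lower and 5.1% higher on number 1. The title number took up 90.2% of the sum of squares of Lcn2 over the arrays, and the treatment group 4.57%. For the median gene these shares were 33.2% and 14.5%. In bulk RNA, fewer cells that make Lcn2 and less Lcn2 RNA per cell cannot be told apart. The contrast of number 1 was chosen because earlier results of these data had shown those arrays apart, so its p-value is no independent evidence.

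Among the receptor genes, Slc22a17 came nearest to the threshold, in the direction opposite to Lcn2. Its difference on number 1 was 0.35 ± 0.112 (SE, interval 0.0998 to 0.60, limma unadjusted p 0.0114, adjusted p 0.0705), with 0.54, 0.42 and 0.095 in the 3 groups. Lrp2 differed by 0.088 (adjusted p 0.783), Mc4r by 0.066 (0.778) and Lrp6 by 0.018 (0.934). Between numbers 2 and 3 no member differed past the threshold, with every adjusted p at 1, and 0% of all genes were called, while 673 had an unadjusted p under 0.05. There Lcn2 differed by 0.068 (interval -0.36 to 0.50) and Slc22a17 by 0.0069 (interval -0.28 to 0.30).

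The genes whose levels were most like those of Lcn2 were sought among the genes at or above the median brightness. By Pearson's r over the 9 arrays they were Ngp (0.995), Dglucy (0.994), Tmem135 (0.989), Gapvd1 (0.988) and Aaas (0.988). Of the 10041 genes searched, 808 had an r above 0.9, so a high r was not particular to these. Ngp encodes neutrophilic granule protein, a granule product of the same cells that store lipocalin 2. Such values include the gap between number 1 and the rest. After the mean of each title number was subtracted, the genes most like Lcn2 were Atp5j2 (0.986), Ngp (0.954), Ly6c2 (0.953), Mettl3 (0.946) and S100a8 (0.945). By this measure 38 of the 10041 genes had an r above 0.9. S100a8 encodes a calcium-binding protein abundant in neutrophils and Ly6c2 a surface protein of inflammatory monocytes. Over the 6 arrays numbered 2 and 3 alone, r with Lcn2 was 0.885 for Ngp, 0.890 for Ly6c2, 0.951 for S100a8 and 0.940 for Ltf. The other genes found by these searches had a positive r there too. It was 0.878 for Gapvd1, 0.830 for Tmem135, 0.800 for Aaas, 0.763 for Dglucy, 0.731 for Atp5j2 and 0.595 for Mettl3. All but Ltf were found with these same 6 arrays included, so r over the 6 is no independent check. Other neutrophil and monocyte markers, named after their values were seen, had a negative r there. Among these were Csf3r (-0.411), Cxcr2 (-0.205), Ccr2 (-0.625) and Nr4a1 (-0.665), so the markers did not all follow Lcn2. Ltf encodes lactoferrin, an iron-binding granule protein.

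Ngp was at 8.19, 10.55 and 10.44 with vehicle, 9.27, 10.57 and 10.68 with LCN2 from day 7, and 8.64, 10.91 and 10.85 with LCN2 from day 0. Each array numbered 1 was the low one of its group. Ltf was at 5.50, 7.39 and 7.10 with vehicle, 6.20, 6.99 and 7.45 with LCN2 from day 7, and 5.85, 7.88 and 7.63 with LCN2 from day 0. Its arrays numbered 1 were the low ones as well. On number 1 the difference was -1.97 ± 0.17 for Ngp (SE, limma adjusted p 0.000201) and -1.56 ± 0.18 for Ltf (adjusted p 0.000828).

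Both belong to the list of 17 measured neutrophil markers. Of these 17, Ngp and Ltf included, 9 were lower on number 1 and 1 was higher, against 8.78% and 5.1% of all genes, and the list's median difference was -0.61, against -0.0022 for all genes. Among those lower were the granule enzyme genes Mpo (-1.44) and Elane (-1.05). The one that was higher was Mmp9, named like Mpo after its values were seen, a matrix protease of neutrophil granules that macrophages also make. It was at 9.06, 6.29 and 5.70 with vehicle, 8.18, 6.03 and 6.48 with LCN2 from day 7, and 7.45, 6.07 and 5.54 with LCN2 from day 0, a difference of 2.21. The mean over the 17 markers was 5.97 to 6.28 on the arrays numbered 1 and 6.55 to 6.89 on the others. By group it was 5.97 to 6.65 with vehicle, 6.28 to 6.79 with LCN2 from day 7 and 6.14 to 6.89 with LCN2 from day 0. The part of neutrophil or monocyte RNA in the level of Lcn2 was not tested.

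Of 7 monocyte markers measured, 4 fell on number 1 and 1 rose, against 8.78% and 5.1% of all genes, with a median difference of -0.46 against -0.0022 for all genes. Of the 7, Cd177 also stands in the neutrophil list, so the 2 lists overlap, and its difference is the median of the 7. Ccr2, the receptor that brings monocytes to sites of inflammation, differed by -2.39 and Ly6c2 by -1.49. Without the day 0 array numbered 1, 3 of the 7 passed in either direction in place of 5. The mean over the list was 5.85 to 6.13 on the arrays numbered 1 and 6.52 to 6.75 on the others. With the same shares of all genes as the background, 3 of 7 macrophage markers rose and 1 fell, among them the lipopolysaccharide co-receptor Cd14 (1.30) and the Fc receptor Fcgr1 (-0.98), and 2 in all passed without the vehicle array numbered 1. Of 7 IL-4 activation markers, 3 rose, among them Chil3 (1.51) and Ccl24 (2.44), and 1 fell. The one that fell was Arg1 (-0.64), named after its values were seen. Of the 7 dendritic cell, 7 lymphoid and 7 stromal markers, 1 each was higher (14.3% of a list), against 5.1% of all genes. These counts were 3 for dendritic cells without the day 0 array numbered 3 and 2 for lymphoid cells without the day 7 array numbered 1. For stromal cells the count was 0 without the vehicle or day 7 array numbered 1 and 2 without the day 0 array numbered 2. Of 5 erythroid and mast cell markers and 13 genes of other tissues, 0 passed, except 1 of the latter without the day 0 array numbered 1.

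**Figure D3:**
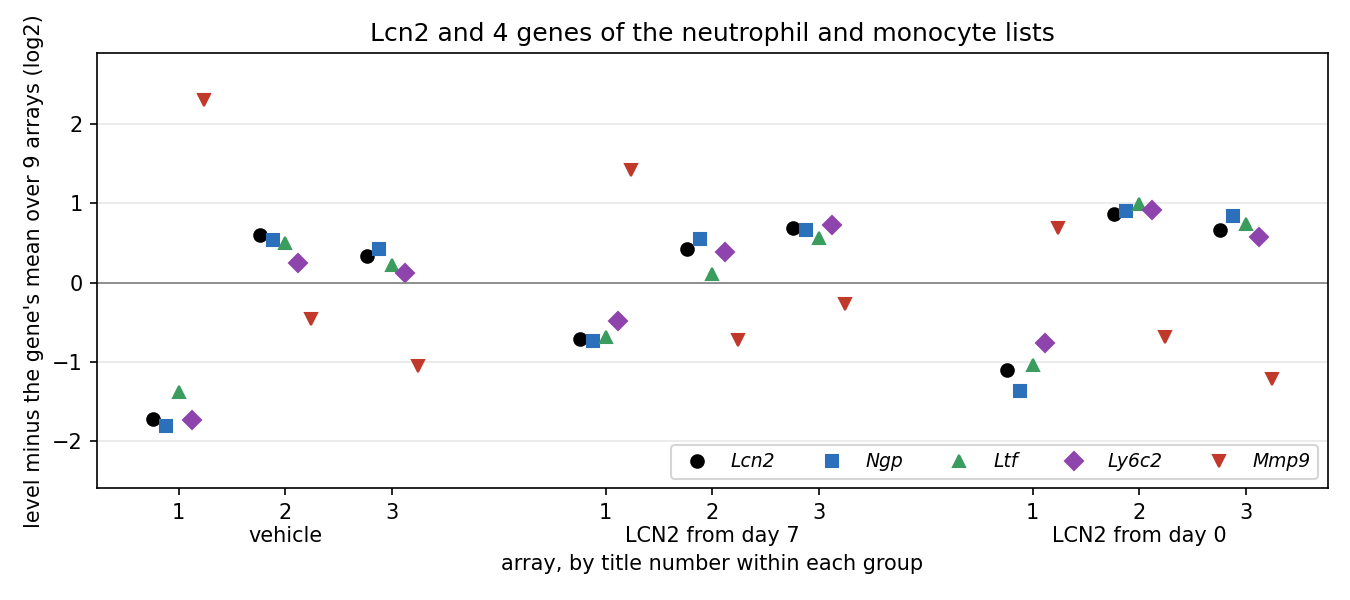
Level of Lcn2, Ngp, Ltf, Ly6c2 and Mmp9 on each array, as log2 units above or below the gene's mean over the 9 arrays (vertical axis), by group and title number (horizontal axis). Each point is 1 array. The arrays numbered 1 lie low for Lcn2, Ngp, Ltf and Ly6c2 and high for Mmp9 in every group.

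Of a list of genes taken as regulators of Lcn2, most of those that passed were higher on number 1, where Lcn2 was lower. The list held 20 measured genes, most of them NF-kB or C/EBP factors or of the Toll-like receptor, interleukin 1, interleukin 6 and interleukin 17 pathways. It also held Il10ra, Nr3c1 and Socs3, so it is not a list of genes that drive Lcn2 alone. On number 1, 7 were higher and 1 lower (35% and 5%), against 5.1% and 8.78% of all genes, with a median difference of 0.20 against -0.0022 for all genes. Tlr2, a receptor for bacterial lipoproteins, was higher by 1.21 ± 0.14 (SE, limma adjusted p 0.000828), and Cebpb, a C/EBP factor of stimulated macrophages, was higher by 0.79 ± 0.11 (adjusted p 0.0019). The 1 that was lower, as Lcn2 was, was Myd88, named after its values were seen. Its call was lost without any 1 of the 9 arrays (differences -0.47 to -0.27, limma adjusted p 0.0576 to 0.208). The count of 8 in either direction was 4 without the vehicle array numbered 1 or the day 0 array numbered 1, and 5 without the vehicle array numbered 2 or 3. Between the treatment groups none of the 20 passed. Il1r1, the interleukin 1 receptor, had the smallest unadjusted p against vehicle, with a difference of -0.62 ± 0.21 (SE) for LCN2 from day 0 (unadjusted p 0.0148, adjusted p 1).

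Of 18 other lipocalin genes measured, 2 were higher on number 1 and 0 lower (11.1% and 0%), against 5.1% and 8.78% of all genes. Rbp4, the carrier of retinol in plasma, was higher by 2.10 ± 0.18 (SE, limma adjusted p 0.000199), and Orm1, an acute-phase plasma protein, by 0.70 ± 0.13 (adjusted p 0.00645). Without the day 0 array numbered 1, Orm1 stood at 0.59 with an adjusted p of 0.0592, which left 1 gene. Just 2 of the 18 lay at or above the median brightness. Of 17 genes for siderophores and iron handling, 6 were higher and 2 lower (35.3% and 11.8%), against the same 5.1% and 8.78% of all genes, so that the share lower lay near that of all genes. Tfrc, the transferrin receptor that imports iron, was higher by 1.11 ± 0.13 (SE, adjusted p 0.000828), and Slc40a1, the iron exporter ferroportin, was lower by 1.17 log2 units, a difference of -1.17 ± 0.16 (adjusted p 0.00165). The count of 8 was 3 without the day 0 array numbered 1, 4 without the vehicle or day 7 array numbered 1, and 5 without the vehicle array numbered 2. Between the treatment groups 0 genes of either list passed.

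The relatives and partners of the receptors were read the same way, with 0 called in any list between the treatment groups. On number 1 these lists are small, and their counts are to be read against the 5.1% of all genes called higher and 8.78% called lower. Among 12 other members of the low-density lipoprotein receptor family, to which Lrp2 and Lrp6 belong, 2 were higher and 2 lower on number 1 (16.7% each). Without the vehicle array numbered 1 or 3, or the day 0 array numbered 1, 0 were called, 2 without the vehicle array numbered 2 and 1 without the day 0 array numbered 2. Lrp1, an endocytic receptor of macrophages and the brightest of the family, differed by -0.40 (limma adjusted p 0.0231). Its call was lost without the vehicle array numbered 1 (adjusted p 0.157), 2 (0.0706) or 3 (0.0703), or the day 0 array numbered 1 (0.115). Among 7 genes whose proteins work with megalin, 1 was higher and 2 lower (14.3% and 28.6%), with 1 in all called without the vehicle array numbered 1 or the day 0 array numbered 1. Dab2, the adaptor that brings megalin into clathrin-coated pits, was the brightest at 12.38 and differed by -0.82 ± 0.10 (SE, adjusted p 0.00104). Cubn, which encodes the megalin partner cubilin, was the dimmest at 3.74.

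Of 22 other genes of the Slc22 transporter family, 2 were higher on number 1 and 0 lower (9.09% and 0%), against 5.1% and 8.78% of all genes. The list is small and mostly dim, as 4 of the 22 lay at or above the median brightness, against 51.5% of all genes. Slc22a4, an ergothioneine transporter, was the brightest at 7.36 and was higher by 0.73 ± 0.12 (SE, limma adjusted p 0.0041). The second, Slc22a21, lost its call without the day 7 array numbered 1 or 3 or the day 0 array numbered 1 or 2 (differences 0.38, 0.39, 0.38 and 0.38). Of 7 other genes of the melanocortin system, 1 lay at or above the median brightness. That was Mrap, an accessory protein of melanocortin receptors, which was higher by 0.55 ± 0.091 (adjusted p 0.00427). Among the treatment comparisons, Mc3r, a receptor related to Mc4r, had a difference of 0.43 ± 0.14 (SE) between day 0 and day 7 (unadjusted limma p 0.00973, adjusted p 1). Of 33 genes of the Wnt pathway around Lrp6, 5 were higher and 1 lower (15.2% and 3.03%). The latter was Fzd7, a Frizzled receptor, which differed by -0.71 ± 0.10 (SE, adjusted p 0.0026). The count of 6 was 2 without the vehicle or day 7 array numbered 1, and 3 without the vehicle array numbered 2 or the day 0 array numbered 1.

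**Figure D4:**
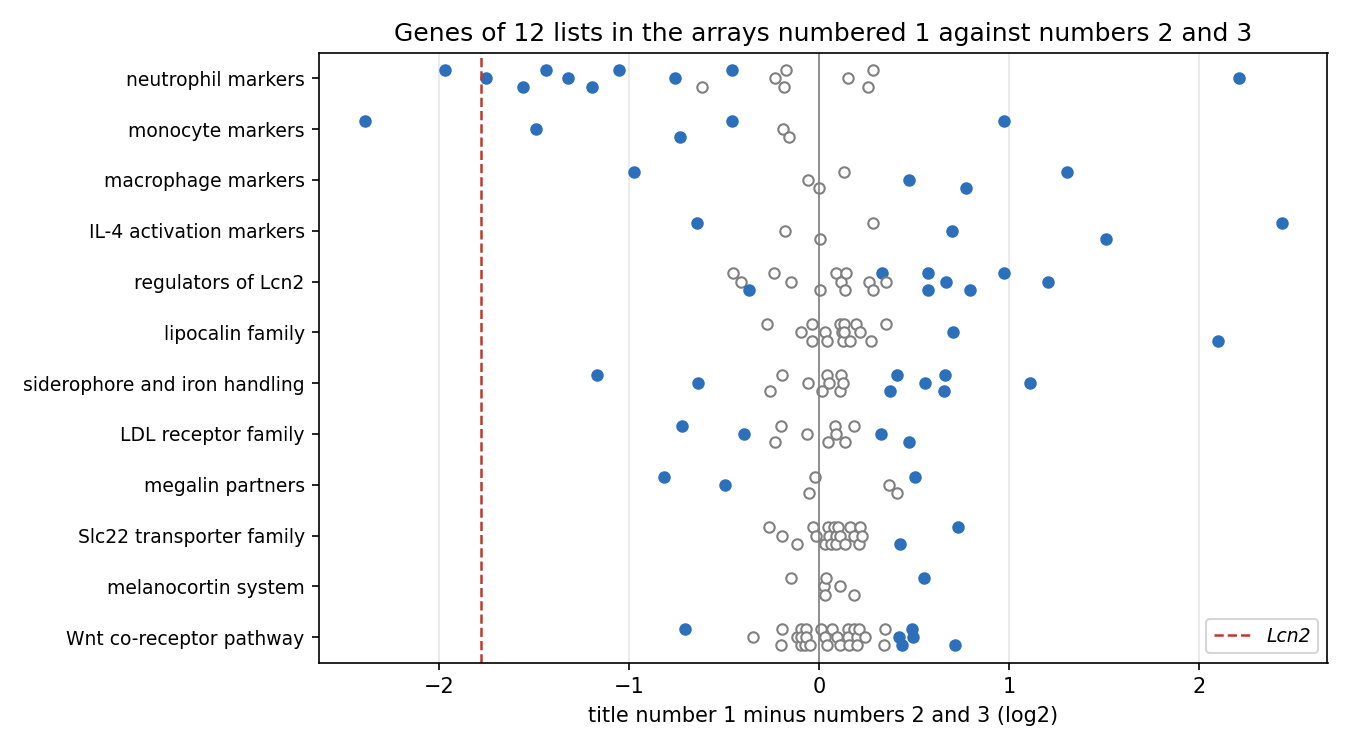
Difference in log2 level between the arrays numbered 1 and those numbered 2 and 3 (horizontal axis) for every measured gene of 12 lists (vertical axis). Each circle is 1 gene, filled where it passed an adjusted p of 0.05 (limma), and the dashed line is Lcn2 at -1.78. Most neutrophil and monocyte markers that passed lie on the side of Lcn2, and the regulators and lipocalins mostly on the other side. Of the 18 lipocalins, 14 lie above 0 but just 2 passed, and just 2 were at or above the median brightness.

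The other members had like-patterned genes too, by the same rule over 9 arrays. For Slc22a17 they were Wee2 (0.979), Itgb6 (0.920), Micos13 (0.914), Isca1 (0.895) and Spire1 (0.894). Wee2, a kinase best known from oocytes, was at 6.20, 5.63 and 5.80 with vehicle, 6.06, 5.73 and 5.45 with LCN2 from day 7, and 6.09, 6.13 and 6.08 with LCN2 from day 0. As for Slc22a17, its day 0 arrays lay above those of day 7, by little. For Lrp2 the first was Fbxl15 (0.933), for Mc4r Lancl1 (0.883) and for Lrp6 Uggt1 (0.878). Each was found by a search of 10041 or 10042 genes over 9 arrays, the member itself left out, and is a description of these arrays. Among the members, Lcn2 and Slc22a17 had an r of -0.64 over the 9 arrays, -0.058 after the mean of each number was subtracted and 0.41 over the 6 arrays numbered 2 and 3. Mc4r and Lrp6 had 0.76, 0.77 and 0.74, in the same order, and both ranges were narrow (0.41 and 0.31 log2 units).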

How the data were processed

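The deposited table holds log2 levels of 22203 probe sets on 9 arrays, made by the authors with the R package oligo and RMA, per the submitters' processing notes, which give no versions. RMA corrects background, equalises the arrays' distributions and summarises probes, so a change shared by most genes is removed. The values were used as deposited. RNA was amplified with a kit for small inputs, per the labels' protocols. Of the probe sets, 19572 had 1 gene symbol, 0 several and 2631 none. Symbols were matched to mouse RefSeq by Entrez identifier (19572 matched, 0 changed). The probe set with the highest mean was kept for 55 genes with several, which left 19505 genes, with no filter. A linear model in limma 3.58.1 (R 4.3.3) gave each of the 3 groups a mean over all 9 arrays, with moderated variances and Benjamini-Hochberg adjustment at 0.05. Title number 1 was compared with the mean of numbers 2 and 3 with group as a block. The fits were tested on simulated data. For day 0 against vehicle without a block, 10.6% of 1.5-fold, 59.2% of 2-fold and 91.4% of 3-fold changes passed the adjusted threshold. With the title number as a block, 33% of 1.5-fold and 75.2% of 2-fold changes did. Small changes between the groups could thus be missed. Arrays carry no counts, so their number limits the precision. The members, lists and the title-number contrast were chosen with earlier results of these data known. Lists held 238 genes, of which 211 were matched by exact symbol. Named genes were the members, the 2 with the smallest p in a list and comparison, and the 5 most like each member. Others are given as a list's brightest or dimmest gene, or as named after their values were seen. Alternatives were a replicate block, a filter, other variance models, array weights, median centring, other probe-set rules, leaving out each array and, chosen after seeing the data, numbers 2 and 3 alone.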

Additional observations from a re-analysis of the deposited data

How the results depend on the processing

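Of the differences of the members under alternatives, 342 kept their sign and side of the threshold and 33 changed sign, none of them past the threshold. The lower Lcn2 on number 1 stayed called without each array (-2.03 to -1.57, limma adjusted p 0.000124 to 0.00465). Array weights turned Lcn2 to -0.149 for day 7 against vehicle and Lrp2 to 0.094 for day 0 against vehicle. With array medians made equal, Lcn2 was at -0.033 for day 0 against day 7 and Lrp6 at -0.019 on number 1. With numbers 2 and 3 alone, Lrp2 was at 0.21 for day 0 against vehicle and Mc4r at 0.043 for day 0 against day 7, and Slc22a17 differed between day 0 and day 7 by 0.49 (adjusted p 0.903). Leaving out 1 array gave, for Lcn2, -0.33 to 0.83 (day 7 against vehicle), -0.33 to 1.03 (day 0 against vehicle), -0.42 to 0.63 (day 0 against day 7) and -0.11 to 0.32 (number 2 against 3). Lrp2 ranged from -0.36 to -0.073 (day 7 against vehicle), -0.21 to 0.11 (day 0 against vehicle), -0.15 to 0.28 (number 1) and -0.19 to 0.14 (number 2 against 3), and Lrp6 from -0.024 to 0.068 (number 1) and -0.085 to 0.049 (number 2 against 3). Mc4r ranged from -0.011 to 0.16 (day 0 against vehicle), -0.089 to 0.045 (day 0 against day 7), -0.015 to 0.13 (number 1) and -0.18 to 0.074 (number 2 against 3), and Slc22a17 from -0.30 to 0.022 (day 7 against vehicle), 0.099 to 0.40 (day 0 against vehicle) and -0.069 to 0.11 (number 2 against 3). The genes called on number 1 ranged from 1121 to 2901. The cause of these changes was not tested. The filter left Slc22a17, Lrp2 and Mc4r without a value.

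With the title number as a replicate block, 0 genes were called in all 3 treatment comparisons, as without it, with 735, 806 and 1021 at an unadjusted p under 0.05 (day 7 and day 0 against vehicle, day 0 against day 7). The interval of Lcn2 against vehicle was then -0.033 to 0.83 for day 7 (limma unadjusted p 0.0665) and -0.028 to 0.83 for day 0 (unadjusted p 0.0637). Both had an adjusted p of 0.999. The interval of Slc22a17 between day 0 and day 7 was then 0.093 to 0.67, without 0 (limma unadjusted p 0.0152, adjusted p 0.933). Deviations from group means correlated between arrays of one number at 0.036 to 0.68, with 8 of 9 pairs above 0.1 and 5 of 9 arrays correlating best with their own number, so not every pair met the limit and the numbers were not taken to pair the arrays. The 3 pairs numbered 1 correlated at 0.60 to 0.68.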
